A study of Arabidopsis thaliana with 12 samples.

Results

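Nearly ripe siliques of 2 reduced-dormancy mutants of *Arabidopsis thaliana*, *rdo2-1* and *rdo3*, were compared directly with each other. The comparison used the 3 arrays labelled *rdo2* and the 3 arrays labelled *rdo3*, 6 of the 12 arrays of the series. The other 6 arrays hold wild-type L*er* and *hub1-2* (labelled *rdo4*), and their levels are given only to place the genes, with no test. All siliques were harvested at 18 to 19 days after pollination from soil-grown plants under long days. Both mutants are in the L*er* background, and each is a single mutant line. The *rdo2-1* allele carries a small deletion near the end of the *RDO2* coding sequence, so that the predicted protein lacks its zinc finger. The sources used here do not name the gene or allele behind *rdo3*. The replicates were independent biological samples according to the methods, with 1 RNA sample per array.

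Seed dormancy is the state in which a viable seed does not germinate although conditions would allow it. It is laid down while the seed matures, promoted by abscisic acid and by the dormancy protein DOG1, and opposed at germination by gibberellins. RDO2 is the transcription elongation factor TFIIS, which helps stalled RNA polymerase II to resume transcription, and HUB1 is an E3 ligase that attaches ubiquitin to histone H2B. A silique holds the maturing embryos in their seed coats together with the drying fruit wall, so each array measured a mixture of tissues. In such bulk samples, fewer cells of a type and less RNA per cell cannot be told apart.

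Intensities are the authors' GC-RMA values on a linear scale, in arbitrary units, and a log2 difference is *rdo2-1* minus *rdo3*. The median log2 intensity of the tested probe sets lay between 5.61 and 5.77 on all 12 arrays. Replicates of the same mutant correlated with each other at a mean r of 0.987 to 0.992 over the tested probe sets. Replicate 2 of *rdo3* had a lower mean r with the *rdo2-1* arrays, 0.974, than replicates 1 and 3, at 0.985 and 0.984. The 3′ minus 5′ log2 difference of the actin control probe sets, a sign of RNA integrity, ranged from 0.61 to 1.05 in *rdo2-1* and from 0.91 to 1.31 in *rdo3*, and that of GAPDH from 0.10 to 0.36 and from 0.12 to 0.27. Seed storage transcripts were abundant on every array, with *SESA4*, a 2S albumin gene, at 23952 to 26972 in *rdo3* and 32733 to 35393 in *rdo2-1*. The summed level of the 14 measured seed storage and oil genes was 185610 to 195110 in *rdo2-1* and 168510 to 176630 in *rdo3*, with no overlap, and that of the 5 dehiscence genes of the fruit wall was 18229 to 20788 and 15228 to 16351. Such sums are weighted to the brightest genes, such as *SESA2*, with means of 34018 and 29375, and *ADPG1*, with 15512 and 12719. By gene, 7 of the 14 storage and oil genes had a log2 difference above 0 and 7 below, with a median of 0.010. For dehiscence it was 4 of 5 above 0, with a median of 0.29. Whether these differences in summed level had a part in the results was not tested. No probe set was named for *RDO2*, so the label of the *rdo2-1* arrays could not be checked on the mutated gene. With 3 arrays per mutant, the number of arrays limits the precision.

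The question was which transcripts separate the TFIIS mutant from *rdo3*, both of which were named for reduced dormancy. A small group of genes differed strongly. The orphan gene *QQS*, the aquaporin gene *PIP2E* and *AT5G13240* were far higher in *rdo2-1*, whereas the bHLH gene *AT1G10585*, the glucosyltransferase gene *UGT76B1* and the flowering repressor *FLC* were far lower. In total, limma called 37 of the tested probe sets (0.252%) at a Benjamini-Hochberg adjusted p under 0.01. Of these, 18 were higher in *rdo2-1* (0.123%) and 19 were lower (0.130%). Called differences reached from 1.03 to 5.10 among the higher and from -1.37 to -4.41 among the lower, with standard errors of 0.12 to 0.31. Over all tested probe sets the median difference was -0.0085 and the median size of a difference was 0.20. The 3 *rdo2-1* values did not overlap the 3 *rdo3* values for any of the 37, as also held for 3848 probe sets (26.3%) overall.

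The number of calls depended strongly on the arrays. It fell to 9 without *rdo2-1* replicate 1, to 15 without *rdo2-1* replicate 3, to 21 without *rdo3* replicate 1 and to 7 without *rdo3* replicate 3. Of the 30 called probe sets with a single gene name, 6 kept the call whichever array was left out, namely *QQS*, *AT5G13240*, *AT4G03156*, *PIP2E*, *AT1G10585* and *UGT76B1*, and each of the others lost it at least once. CyberT, which the study's methods use, called 410 probe sets (2.80%), 178 higher (1.21%) and 232 lower (1.58%), and its calls held all 37 of limma. At an adjusted p under 0.05, limma called 324 probe sets (2.21%), 130 higher (0.887%) and 194 lower (1.32%). Apart from *DOG1*, 23 genes are named at 0.05 but not at 0.01. Each of the 23 passed 0.05 with all 6 arrays and missed it without at least 1 of them. This check at 0.05 did not cover *DOG1*. The 30 named genes were 14 higher and 16 lower in *rdo2-1*. Names came from the array annotation for 17 genes and from the gene list of the study for 13. That list holds genes called in *rdo2-1* or *hub1-2* against L*er* on arrays that include the *rdo2-1* arrays used here, so these 13 genes are not an independent selection. The share called was 1.17% among probe sets named through the list and 0.21% among those named by the array.

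**Figure D1:**
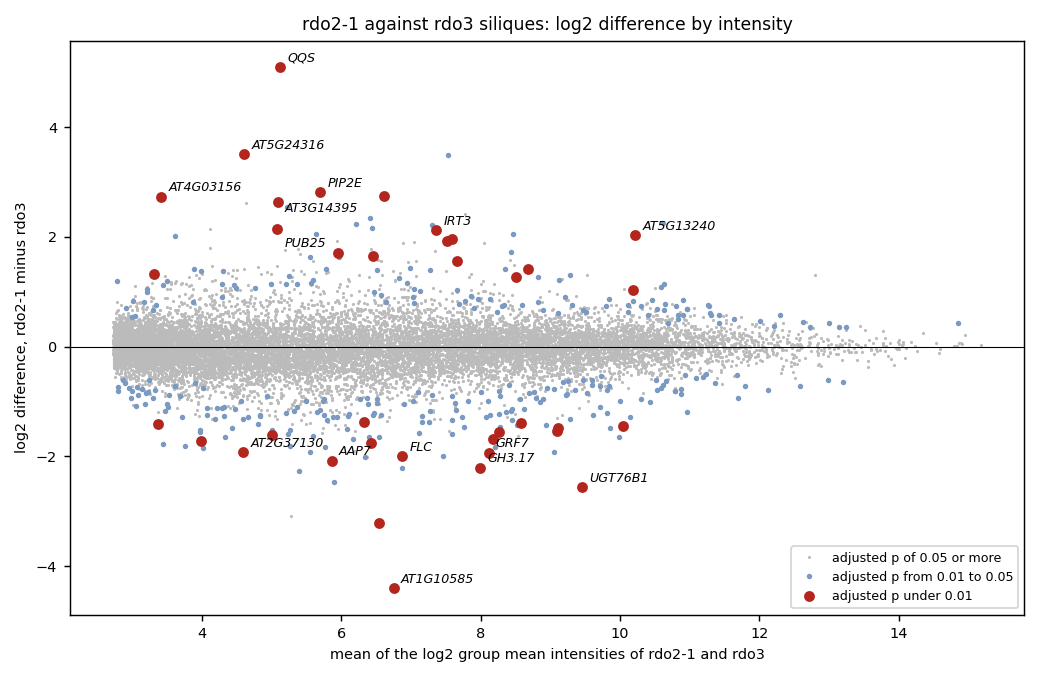
Log2 difference (*rdo2-1* minus *rdo3*, vertical axis) of each tested probe set against the mean of its log2 group mean intensities (horizontal axis). Large dark points are the 37 probe sets with an adjusted p under 0.01, and *QQS* at 5.10 and *AT1G10585* at -4.41 lie farthest from 0 among the named genes.

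*QQS* (AT3G30720) gave the largest called difference. It is an orphan gene, found as such only in *A. thaliana*, whose level affects starch content. Its intensity was 179, 135 and 319.7 in *rdo2-1* and 5.65, 5.71 and 5.89 in *rdo3*. Replicate 3 of *rdo2-1* was the highest, and the groups lay far apart. The *rdo3* values were below the median of all probe sets of an array (11.6 to 12.1), a level at which background cannot be told from signal, and the size of the fold is therefore uncertain. The log2 difference was 5.10 (SE 0.30, adjusted p = 2.56e-04). L*er*, at 6.69 ± 0.498 (SD, n = 3), and *hub1-2*, at 5.42 ± 0.485 (SD, n = 3), were also below the array medians.

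*AT5G13240*, which has no symbol in the annotation used, was bright on all arrays. It measured 2761, 2314 and 2193 in *rdo2-1* and 606, 561 and 599 in *rdo3*. Every *rdo2-1* array was far above every *rdo3* array, and L*er*, at 487 to 611, overlapped *rdo3*. Its mean was 4.12-fold higher in *rdo2-1* (log2 difference 2.04, SE 0.12, adjusted p = 2.56e-04).

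*PIP2E* (AT2G39010) encodes an aquaporin of the plasma membrane, a channel for water. It reached 117, 147 and 148 in *rdo2-1* against 19.99, 21.4 and 17.3 in *rdo3*, a 7.03-fold ratio of means (log2 difference 2.81, adjusted p = 4.02e-04). Both L*er*, at 13.7 to 27.7, and *hub1-2*, at 12.1 to 17.38, lay near the *rdo3* level, and only *rdo2-1* was high. *IRT3* (AT1G60960), a metal transporter gene of the ZIP family, gave 381, 354 and 289 in *rdo2-1* and 103, 71.1 and 64.2 in *rdo3* (log2 difference 2.12, adjusted p = 0.00319). The other ZIP genes measured were *ZIP1*, at 134, 55.4 and 89.4 in *rdo2-1* and 33.5, 30.6 and 33.6 in *rdo3* (log2 difference 1.42, adjusted p = 0.0481), and *ZIP9*, with a log2 difference of 0.14 (adjusted p = 0.518). *ZIP1* did not reach the threshold of 0.01, and its *rdo2-1* replicates differed widely among themselves.

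*CORI3* (AT4G23600), a gene induced by coronatine, a bacterial mimic of jasmonate, was measured at 546, 564 and 578 in *rdo2-1* and 235, 210.4 and 256 in *rdo3*. The replicates lay close together and the groups apart, with a log2 difference of 1.27 (adjusted p = 0.00405). *PUB25* (AT3G19380), a U-box E3 ubiquitin ligase gene, differed by 2.14 (adjusted p = 0.00884) between 60.7 to 87.3 in *rdo2-1* and 12.5 to 22.7 in *rdo3*. L*er*, at 36.8 to 82.6, overlapped *rdo2-1* and not *rdo3*. *AGP24* (AT5G40730), an arabinogalactan protein gene of the cell surface, had the smallest called difference, 1.03 (adjusted p = 0.00999), at 1572 to 1766 against 699 to 939. *AT2G03980*, of the GDSL lipase family, differed by 1.57 (adjusted p = 0.00318), with 303 to 375 in *rdo2-1* and 114 to 124 in *rdo3*.

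Another 6 higher genes have no symbol in the annotation used. The largest differences among them were 3.51 for *AT5G24316* (adjusted p = 0.00157) and 2.73 for *AT4G03156* (adjusted p = 3.96e-04). For *AT4G03156* the values were 30.1, 32.0 and 21.0 in *rdo2-1* and 4.22, 4.29 and 3.82 in *rdo3*, with L*er* and *hub1-2* as dim as *rdo3*. *AT1G42705* was dim in both mutants, at 15.2 to 16.6 in *rdo2-1* and 5.68 to 7.08 in *rdo3* (log2 difference 1.33, adjusted p = 0.00319), while *hub1-2* stood at 20.03 to 57.7. For *QQS* and these 3 genes, the *rdo3* mean was below the array medians. *AT3G14395* differed by 2.63 (adjusted p = 0.00115), and its L*er* replicates, at 12.2, 22.9 and 101.2, spanned both mutants. The remaining pair, *AT3G52610* and *AT3G56290*, differed by 1.64 (adjusted p = 0.00405) and 1.41 (adjusted p = 0.00489).

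**Figure D2:**
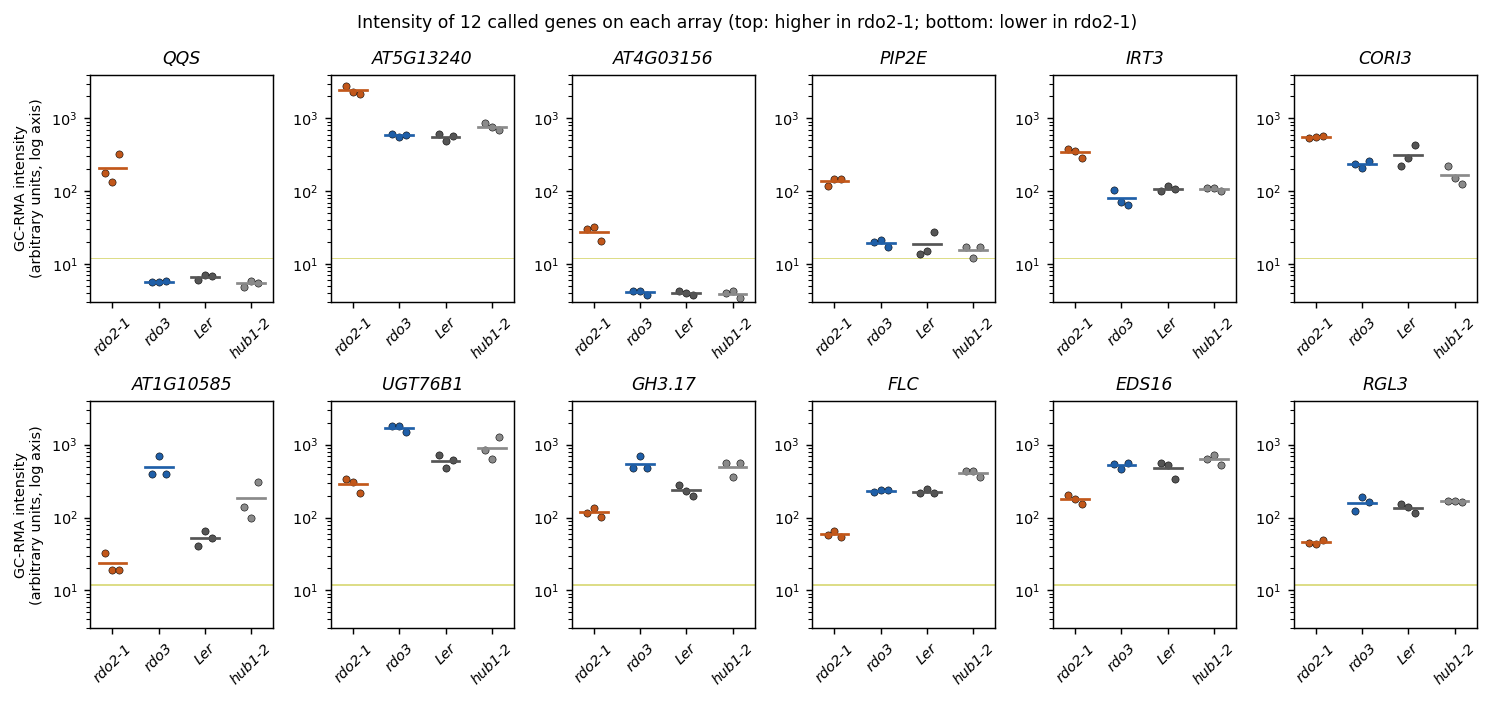
GC-RMA intensity (arbitrary units, log axis) of 12 called genes, 6 higher (top) and 6 lower (bottom) in *rdo2-1*, with a point for each array, a bar for the mean of the 3 arrays of a genotype, and a pale band at the array medians of 11.6 to 12.1. *QQS* and *AT4G03156* are below the band in every genotype but *rdo2-1*, and *AT1G10585* is highest in *rdo3*.

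Among the genes lower in *rdo2-1*, *AT1G10585* showed the largest difference. It encodes a protein of the bHLH family of transcription factors. The intensities were 32.7, 18.8 and 18.9 in *rdo2-1* and 400, 693 and 400.2 in *rdo3*. The *rdo3* mean was 21.2-fold higher (log2 difference -4.41, SE 0.29, adjusted p = 3.96e-04), and no *rdo3* array came near an *rdo2-1* array. L*er* was at 40.6, 66.2 and 52.7, above *rdo2-1* but far below *rdo3*, and *hub1-2* at 141, 97.2 and 312.

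*UGT76B1* (AT3G11340), a glucosyltransferase gene whose product glucosylates isoleucic acid and salicylic acid, was measured at 343, 307 and 218 in *rdo2-1* and 1784, 1805 and 1488 in *rdo3* (log2 difference -2.57, SE 0.18, adjusted p = 4.12e-04). L*er* fell between the mutants, at 483 to 711. *EDS16* (AT1G74710, also named *SID2*) encodes the isochorismate synthase of salicylic acid synthesis and read 202, 181 and 153 in *rdo2-1* and 543, 469.5 and 562 in *rdo3* (log2 difference -1.56, adjusted p = 0.00319). *GH3.17* (AT1G28130), which encodes an enzyme that joins auxin to amino acids, gave 117, 135 and 103 in *rdo2-1* and 474, 698 and 481 in *rdo3* (log2 difference -2.20, adjusted p = 0.00157). For all of these genes, the *rdo2-1* values lay below the *rdo3* values without overlap. *RGL3* (AT5G17490), a DELLA gene whose product restrains gibberellin responses, had 45.4, 44.0 and 49.5 in *rdo2-1* and 124, 189 and 163 in *rdo3* (log2 difference -1.76, adjusted p = 0.00556), and its L*er* values, 114 to 154, overlapped *rdo3*.

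*FLC* (AT5G10140), the MADS box repressor of flowering, was 56.7, 65.5 and 54.2 in *rdo2-1* and 225, 238 and 240.1 in *rdo3*. The replicates of each mutant agreed closely, and *rdo3* was about level with L*er*, at 215, 243 and 215, whereas *hub1-2* was higher, at 433, 432 and 361. The *rdo2-1* mean was 58.8 ± 5.94 and the *rdo3* mean 234 ± 7.93 (SD, n = 3), a log2 difference of -1.998 (SE 0.16, adjusted p = 0.00115). *FLC* and *GH3.17* lost their calls when *rdo2-1* replicate 1 or *rdo3* replicate 3 was left out, with adjusted p up to 0.0134 for *FLC* and 0.0183 for *GH3.17*. Of the other 6 flowering genes measured none was called, and *FT*, the mobile flowering signal, had a value of -0.43 (adjusted p = 0.0649).

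*PRR3* (AT5G60100), a pseudo-response regulator of the circadian clock, measured 47.6, 49.6 and 52.0 in *rdo2-1* and 119, 137 and 130 in *rdo3* (log2 difference -1.37, adjusted p = 0.0085). The call was lost on leaving out any of the 6 arrays and with the replicate number as a block. Among the other 7 clock genes measured, the morning genes *LHY* and *CCA1* passed the wider threshold of 0.05 in the opposite direction. At that threshold 0.887% of all tested probe sets were called higher. The gene list of the study named 7 of the 8 clock genes measured, so they are not an independent selection. Of the 8, 4 had values above 0 and 4 below, with a median of -0.039. Leaving out 1 array moved that median between -0.168 (without *rdo3* replicate 1) and 0.128 (without *rdo3* replicate 2). *LHY* was at 825, 669 and 1043 in *rdo2-1* and 306, 468 and 325 in *rdo3* (log2 difference 1.21, adjusted p = 0.0263). *CCA1* read 876, 871 and 924 in *rdo2-1* and 503, 661 and 536 in *rdo3* (log2 difference 0.66, adjusted p = 0.045). *GI* and *TOC1*, genes of the evening, had values of -0.98 (adjusted p = 0.162) and -0.70 (adjusted p = 0.254) and were not called. The sources used here do not give the time of day of harvest.

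*GRF7* (AT5G53660), a growth-regulating transcription factor gene, differed by -1.94 (adjusted p = 0.00254), at 110.2 to 161 in *rdo2-1* and 499 to 606 in *rdo3*. *AAP7* (AT5G23810), of the amino acid permease family, was 25.2, 34.6 and 25.4 in *rdo2-1* and 134, 105 and 119 in *rdo3* (log2 difference -2.08, adjusted p = 0.00318), and *hub1-2*, at 12.9 to 22.5, was lower still than *rdo2-1*. The class III peroxidase gene *AT2G37130* differed by -1.92 (adjusted p = 0.00884), and *hub1-2*, at 9.84 to 14.2, overlapped *rdo2-1*. *CYP71B14* (AT5G25180), a cytochrome P450 gene, was measured at 506 to 783 in *rdo2-1*, 1706 to 1789 in *rdo3* and 2654 to 2866 in *hub1-2* (log2 difference -1.45, adjusted p = 0.00405).

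The other 5 lower genes differed by -1.41 to -1.71. *VSR7* (AT4G20110), a vacuolar sorting receptor gene, was at 8.45 to 9.20 in *rdo2-1*, below the array medians, and at 24.8 to 33.0 in *rdo3* (adjusted p = 0.00254). *AT1G61420*, of the S-locus lectin kinase family, was also below the array medians in *rdo2-1*, at 5.801 to 7.16 (log2 difference -1.41, adjusted p = 0.00589), so the size of both folds is uncertain. *AT3G60070* had the tightest replicates, 17.8, 18.7 and 18.8 in *rdo2-1* and 56.8, 56.3 and 55.1 in *rdo3* (log2 difference -1.61, adjusted p = 0.00344). *AT4G16000* and *MEE14* (AT2G15890) differed by -1.68 (adjusted p = 0.0084) and -1.47 (adjusted p = 0.00974). Of the 7 called probe sets without a single gene name, 1 has several genes in the array annotation and 6 have no name in the tables used. By the suffix of their names, 4 of the 37 called probe sets can match transcripts of more than a single gene, and *AT1G42705* is among them although the annotation gives it 1 gene.

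The level in L*er*, which took no part in the test, was nearer to *rdo3* for 25 of the 37 probe sets and nearer to *rdo2-1* for 12. Among the 18 higher in *rdo2-1*, it was nearer to *rdo3* for 12, and among the 19 lower, for 13. The range of the L*er* replicates overlapped only the *rdo3* range for 15 probe sets and only the *rdo2-1* range for 4. It overlapped both ranges for 1, *AT3G14395*, and lay in the gap between them for 16. For *AT3G60070* alone L*er*, at 67.1 to 73.8, was outside both mutants, above *rdo3*. The L*er* counts were made for the called probe sets only. Whether they differ from those of all tested probe sets was not tested. In addition, 13 of the called genes were named through the gene list of the study, which holds genes called in a mutant against L*er*.

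**Figure D3:**
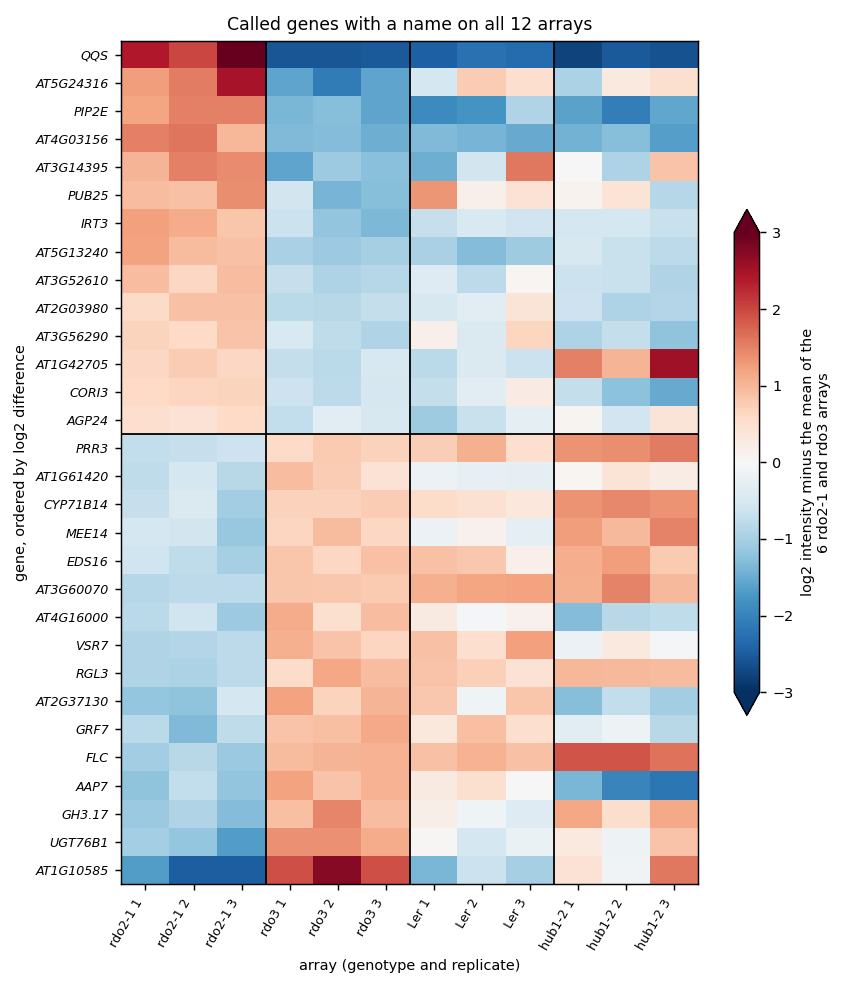
Log2 intensity of the 30 called genes with a name (rows) on each of the 12 arrays (columns), relative to the mean of the 6 *rdo2-1* and *rdo3* arrays, with red for higher and blue for lower. The 14 genes above the line are higher and the 16 below it lower in *rdo2-1*, and L*er* and *hub1-2* resemble either mutant depending on the gene.

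The lists of dormancy, abscisic acid and gibberellin genes held *RGL3* at 0.01 and *DOG1* and *ABA3* at 0.05, all lower in *rdo2-1*, against 0.130% and 1.32% of all tested probe sets called lower at these thresholds. Of these lists, 13 of the 22 measured genes were named through the gene list of the study, *RGL3*, *DOG1* and *ABA3* among them. No member named by the array annotation was called at either threshold. Among all probe sets named through that gene list, 1.17% were called at 0.01 in either direction. Of the 9 measured genes of dormancy and seed maturation, 0 were called at 0.01 and 1, *DOG1*, was lower in *rdo2-1* at 0.05, with a list median of -0.21 (-0.12 without *rdo2-1* replicate 3). *DOG1* (AT5G45830) was 712, 521 and 599 in *rdo2-1* and 922, 999 and 1042 in *rdo3* (log2 difference -0.70, SE 0.14, adjusted p = 0.0418). The groups did not overlap, as for 26.3% of all probe sets. CyberT called the gene with an adjusted p of 0.00925, as it did 2.80% of all probe sets. In L*er* it was 1193 ± 299 and in *hub1-2* 204 ± 1.75 (SD, n = 3). *MFT*, a regulator of germination, had a value of -0.60 (adjusted p = 0.154), and *FUS3*, a master regulator of maturation, 0.088 (adjusted p = 0.847). Of the 4 genes of abscisic acid metabolism measured, *ABA3* was lower in *rdo2-1* at the wider threshold, at 175, 209 and 138 against 403, 493 and 362 (log2 difference -1.28, adjusted p = 0.017). Its product adds sulfur to the molybdenum cofactor used in abscisic acid synthesis. *NCED3*, for the rate-limiting step of that synthesis, showed -0.0089 (adjusted p = 0.992). Of the 9 gibberellin genes, only *RGL3* was called at either threshold. The receptor genes *GID1A*, *GID1C* and *GID1B* had values of -0.68, -0.72 and -0.037 (adjusted p = 0.074, 0.156 and 0.94).

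For transcription elongation and H2B ubiquitination, 7 genes were measured, 0 were called at 0.01 or 0.05 by limma or at 0.01 by CyberT, and the list median was -0.40. The median moved to -0.070 without *rdo2-1* replicate 1 and to -0.16 without *rdo3* replicate 2, and 6 of the 7 genes were named through the gene list of the study. *HUB1* was at 38.9, 36.6 and 48.3 in *rdo2-1* and 45.7, 84.8 and 56.7 in *rdo3*, with overlapping ranges (log2 difference -0.56, adjusted p = 0.26), and its partner *HUB2* had a value of -0.49 (adjusted p = 0.0977). *ELF7*, of the polymerase-associated factor complex, showed -0.15 (adjusted p = 0.731) and *ATXR7*, a histone methyltransferase gene, 0.33 (adjusted p = 0.558). Over all probe sets tested, 2969 had an unadjusted p under 0.05.

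Of 14 seed storage and oil genes, 0 were called at 0.01, and *SESA4* alone was higher at 0.05 (0.887% of all probe sets were), at 34760, 32733 and 35393 in *rdo2-1* and 23952, 26972 and 25729 in *rdo3* (log2 difference 0.43, adjusted p = 0.0139). The list median was 0.010, with 7 values above and 7 below 0, and turned to -0.034 after quantile normalization and to -0.032 without *rdo2-1* replicate 3. Of 24 late embryogenesis genes, whose products protect drying cells, 0 were called at 0.01, while *COR47*, a dehydrin gene, was higher and *LEA18* and *M17* were lower at 0.05, beside 2.21% of all probe sets called in either direction. *COR47* gave 95.04, 65.8 and 61.1 in *rdo2-1* against 33.1, 33.8 and 27.4 in *rdo3* (log2 difference 1.21, adjusted p = 0.0308). For *M17* the values were 1085, 2002 and 950.3 in *rdo2-1* against 2808, 2634 and 3358 in *rdo3* (log2 difference -1.20, adjusted p = 0.0461), and those in *rdo2-1* varied widely among themselves. The list median was -0.066, and leaving out 1 array moved it between -0.19 (without *rdo2-1* replicate 2) and -0.0062 (without *rdo2-1* replicate 1). The 16 heat shock genes had a median of -0.30, with 0 called at either threshold and 0 by CyberT, and the median was -0.095 without *rdo2-1* replicate 3 and -0.10 without *rdo3* replicate 1. Among 8 genes of the response to dehydration, cold and oxidation, *HB-12*, a homeobox gene, and *APX1*, an ascorbate peroxidase gene, were higher at 0.05. *CAT3*, a catalase gene, was lower (1.13, 0.74 and -0.67 for the 3 genes, adjusted p = 0.013, 0.0299 and 0.0139). At this threshold 0.887% of all probe sets were called higher and 1.32% lower. The gene list of the study named 7 of the 8 genes.

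Glucosinolate genes, which make the sulfur-rich defence compounds of the cabbage family, had a median of 0.62, with 15 of 18 values above 0. None was called at 0.01, 3 were higher at 0.05 (0.887% of all probe sets), and CyberT called 7 higher (1.21% of all probe sets). *SUR1*, the C-S lyase gene of the core pathway, was 1642, 1399.9 and 1622 in *rdo2-1* and 956, 756 and 913 in *rdo3* (log2 difference 0.83, adjusted p = 0.017). *SOT16*, a sulfotransferase gene of the last step, gave 197, 166 and 208 in *rdo2-1* and 110.3, 85.7 and 80.2 in *rdo3* (log2 difference 1.05, adjusted p = 0.0288). *UGT74C1*, a glucosyltransferase gene, read 347, 183 and 229 in *rdo2-1* and 114, 64.9 and 107 in *rdo3* (log2 difference 1.40, adjusted p = 0.0465). In each of the 3 genes, the groups did not overlap, as for 26.3% of all probe sets. The 7 members named by the array annotation alone had a median of 0.0031, and the other 11 were named through the gene list of the study. Of the 7, *UGT74C1*, *UGT74B1* and *BCAT4* had values of 1.40, 0.70 and 0.42, and *AOP3* of 0.0031. *AOP1*, *GTR2* and *GTR1* had values of -0.39, -0.15 and -0.068.

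Photosynthesis genes of the nucleus had a median of 0.48, with 21 of 24 values above 0 and 0 called at either threshold. The median was 0.26 without *rdo2-1* replicate 3, 0.27 without *rdo3* replicate 2 and 0.73 without *rdo2-1* replicate 2. Their summed level overlapped between the mutants, at 25765, 19368 and 33664 in *rdo2-1* and 23107, 15824 and 19701 in *rdo3*. The highest value was that of *PSBS*, for the photoprotective subunit of photosystem II (1.37, adjusted p = 0.0542). CyberT called it higher with an adjusted p of 0.00124, as it did 1.21% of all probe sets. Of the 63 plastid-encoded genes measured, 60 had values above 0, with a median of 0.38 and 0 called at 0.01 or 0.05. CyberT called 3 of them higher, beside 1.21% of all probe sets. The 3 were *petB*, *psbH* and *psaI*, which encode subunits of the cytochrome b6f complex and of photosystems II and I. Replicate 1 of *rdo3*, with a summed level of 41923, was within the *rdo2-1* range of 38040 to 44725, and the other *rdo3* replicates were at 30407 and 29022. Without that replicate the median was 0.64 (0.27 without replicate 3), and 1 gene, *psbH*, was called at 0.01, as 1 of 12 probe sets called higher without that replicate. The 13 mitochondrial genes measured had a median of 0.45, with 11 values above 0 and 0 called. Whether organelle RNA content had a part in other results was not tested. The 13 flavonoid genes had a median of -0.27, with 0 called at either threshold and 0 by CyberT, and leaving out 1 array moved the median between -0.57 (without *rdo3* replicate 2) and -0.053 (without *rdo2-1* replicate 3). Within each mutant, *TT4*, the chalcone synthase gene, varied widely, at 11.2, 59.3 and 13.2 in *rdo2-1* and 91.2, 14.3 and 59.9 in *rdo3* (log2 difference -1.05, adjusted p = 0.467).

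**Figure D4:**
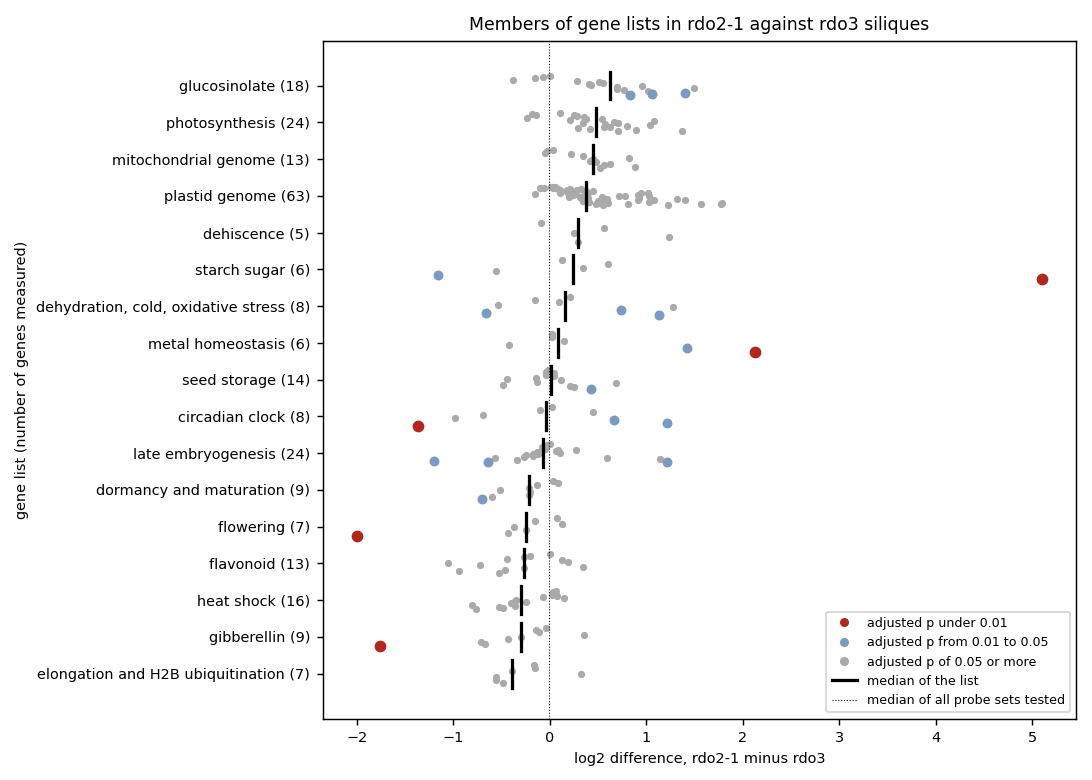
Log2 difference (*rdo2-1* minus *rdo3*, horizontal axis) of each measured member of the gene lists with 5 or more measured members, other than the list of genes the paper names, with list medians as black bars and the median of all tested probe sets as a dotted line. At most 3 members of a list pass a threshold, and the medians run from -0.40 for elongation and H2B ubiquitination to 0.62 for glucosinolates.

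Other lists held single genes that passed a threshold. *SEN1*, a gene induced in the dark and in senescing leaves, was lower in *rdo2-1* at 0.05, at 245, 126 and 106 against 487, 738 and 411 (log2 difference -1.83, adjusted p = 0.0282). At this threshold 1.32% of all probe sets were called lower. The other 2 of the 3 senescence genes measured, *NAP* and *ORE1*, had values of 0.80 (adjusted p = 0.0753) and 0.20 (adjusted p = 0.383). The median of the 3 was 0.20. *PKP-BETA1*, for a plastid pyruvate kinase subunit needed for seed oil, was lower at 0.05 (-1.16, adjusted p = 0.017). It stood beside *QQS* in the list of starch and sugar genes, of which the other 4 passed neither threshold. Of the 5 dehiscence genes, 0 passed either threshold, and *ALC*, a bHLH gene of valve separation, had a value of 1.24 (adjusted p = 0.0622). The 2 measured seed coat genes had values of -0.27 and -0.26 and no endosperm gene of the list was measured, so those tissues were barely covered.

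The chromosome of a call was counted only for probe sets named by the array annotation, and those called at 0.05 lay on every nuclear chromosome. At 0.01 the calls among them were 4, 2, 7, 2 and 2 on chromosomes 1 to 5, of 2090, 1237, 1638, 1133 and 1885 tested. The share of these probe sets called at 0.05 was 2.01% on chromosome 1, 2.18% on chromosome 2, which carries *RDO2*, 1.65% on chromosome 3, 1.77% on chromosome 4 and 1.86% on chromosome 5.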

How the data were processed

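Whole siliques were profiled on Affymetrix ATH1 arrays. Background correction, normalization and probe summarization were done by the authors with GC-RMA in Expressionist Pro. They deposited linear intensities in arbitrary units for 22810 probe sets, and the sources used here do not say which arrays were normalized jointly. Values were turned into log2 without a pseudocount. After removal of 64 control probe sets, those with the highest mean log2 intensity over the 6 arrays were kept, as many as passed the detection filter of the study, and the lowest of them had a geometric mean of 6.61. limma 3.58.1 in R 4.3.3 compared the 3 *rdo2-1* with the 3 *rdo3* arrays with an intensity-dependent prior and Benjamini-Hochberg adjustment over all kept probe sets. For CyberT, a prior weight of 10 was set. The script was tested on simulated data.

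Names are from the array annotation where it gives a probe set 1 gene (8086 of those kept) or through the gene list of the study (1110), and 5459 have no single name here. Genes of a list without a named and kept probe set are not analysed here, among them *VIP4*, *VIP5*, *ELF8* and *ACT8*. Named are all called probe sets with 1 gene, the genes the paper names, and the 3 largest called differences of each list in each direction. Other genes, among them all named at the threshold of 0.05 or without a call, were chosen with their values in view. The members and lists were chosen with earlier results of these data known. Chromosomes and symbols are from RefSeq (TAIR10.1). Naming and plotting used Python 3.11.15 with pandas 2.3.3, NumPy 2.4.6 and matplotlib 3.10.9. No result columns of the authors were used. Alternatives changed the filter, the prior, the arrays fitted, the scaling, the threshold or the pseudocount, added the replicate number as a block, or left out an array.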

Additional observations from a re-analysis of the deposited data

How the results depend on the processing

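Of the 37 calls, 18 higher and 19 lower, the total was within 1.5 times of this under the 3 other filters, a constant prior, median centring, quantile normalization, a pseudocount of 16 and without probe sets that match several genes (28 to 47 calls). It was 410 (178 higher, 232 lower) with CyberT, 229 (72 and 157) with all 12 arrays in the fit, and 324 (130 and 194) at a threshold of 0.05. Leaving out 1 array at a time gave 7 to 28 calls, 4 to 14 higher and 3 to 14 lower, the fewest in total without *rdo3* replicate 3. In fits of 5 arrays there are fewer samples to estimate the spread. Of the 30 named genes, 6 (*QQS*, *AT5G13240*, *AT4G03156*, *AT1G10585*, *PIP2E* and *UGT76B1*) stayed under 0.01 in every alternative in which they were tested, and the other 24 lost the call in at least 1. All 30 kept their direction. Among all genes the text names, 4 that passed no threshold changed sign. Leaving out 1 array gave -0.27 to 0.062 for *ELF7*, -0.086 to 0.21 for *FUS3*, -0.34 to 0.40 for *NCED3* and -0.18 to 0.15 for *GID1B*, and median centring gave 0.055 for *NCED3* and 0.027 for *GID1B*, which was 0.018 after quantile normalization.

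The labels give both mutants the replicate numbers 1 to 3. The methods of the study describe no block, so the main fit used none. Deviations from the group means correlated at 0.24, 0.15 and -0.04 for arrays with the same number. Arrays with different numbers were not compared in this way, so these values cannot decide whether the numbers mark a pairing. With the replicate number as a block, 72 probe sets were called, 34 higher and 38 lower, 36 of the 37 among them, all but *PRR3*.

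Median centring moved the median difference of all probe sets to 0.055, and the medians of the glucosinolate, photosynthesis and organelle lists stayed above 0 under both scalings. The median of the seed storage genes was 0.074 after centring and -0.034 after quantile normalization. Differences of genes whose dimmer mutant is below the array medians have an uncertain size, as *QQS*, with 4.75 to 5.38 over the alternatives that add no pseudocount and a lower value with a pseudocount of 16.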

Other observations

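Some related genes outside the rule for named genes, chosen after their values were seen, differed between *rdo2-1* and *rdo3* at the threshold of 0.05 in the opposite direction to a called relative. Whether the difference of a pair differs was not tested. *ICS2*, the second isochorismate synthase gene, was higher in *rdo2-1*, at 657, 581 and 610.2 against 225, 120.4 and 238 (log2 difference 1.72, adjusted p = 0.0146), whereas *EDS16* was lower (-1.56). *GH3.3*, another gene for an auxin-conjugating enzyme, was at 147, 207 and 175 in *rdo2-1* and 29.3, 69.9 and 29.4 in *rdo3* (log2 difference 2.16, adjusted p = 0.0172), whereas *GH3.17* was lower (-2.20). *PRX52*, a class III peroxidase gene, was higher at 154, 102 and 52.0 against 15.39, 36.0 and 20.5 (log2 difference 2.06, adjusted p = 0.0454), and the peroxidase gene *AT2G37130* was lower (-1.92).

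Another relative of a called gene moved the same way. *GRF8* was lower in *rdo2-1* like *GRF7*, at 82.4, 76.0 and 79.2 against 256, 306 and 167 (log2 difference -1.57, adjusted p = 0.0147). The lipid transfer protein genes *LTP3* and *LTP4*, neither called at 0.01, were both higher in *rdo2-1*, by 3.49 (adjusted p = 0.0282) and 2.25 (adjusted p = 0.0348). Their values varied together among the replicates of *rdo2-1*, with 822, 174 and 1013 for *LTP3* and 4512, 1385 and 5006 for *LTP4*, and replicate 2 was the lowest for both. They are similar neighbouring genes, and their probe sets were not checked for shared probes. *TPS02*, a terpene synthase gene given here without a relative, was 128, 323 and 144 in *rdo2-1* and 26.2, 46.0 and 37.9 in *rdo3* (log2 difference 2.34, adjusted p = 0.017).

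Replicate 2 stood apart from replicates 1 and 3 for the flavonoid gene *DFR*, high in *rdo2-1* (121, 370 and 115) and low in *rdo3* (391, 154 and 388), as it did for *TT4*. In L*er* the values of *DFR* were 756, 434 and 906.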
